A study of Homo sapiens with 6 samples.

Results

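Frame-keeping cassette exons with lower inclusion in group 1 were described in SW480, an established human colon cancer line. A cassette exon (skipped exon, SE) is either kept in the mRNA or spliced out together with its flanking introns. The members were chosen from the deposited splicing records by 2 measured properties, a mean inclusion level that was lower in group 1 than in group 2 and an exon length divisible by 3. These criteria gave 440 of the 1263 listed SE records. The records covered 420 distinct exons in 391 genes, since 19 exons were listed with more than 1 pair of flanking exons. The study compared 3 libraries of cells carrying a non-silencing short hairpin RNA (shCtrl) with 3 libraries of cells carrying a hairpin against RBM39 (shRBM39). How many hairpins against RBM39 were used for these libraries is not stated. Both kinds of hairpin were delivered by lentivirus and stable clonal lines were selected with puromycin. A difference between the hairpins therefore cannot be told apart from a difference between the lines. The splicing records named their columns group 1 and group 2 and no key to the hairpins was found, so the lower inclusion is given for group 1 and its assignment to the knockdown could not be checked from the labels.

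RBM39 is an RNA-binding protein related to the U2AF splicing factor, which reads the pyrimidine tract and the AG at the start of an exon. When an exon whose length is divisible by 3 is skipped, the reading frame downstream is kept and the protein loses an internal segment. When another exon is skipped, the frame shifts and the mRNA often becomes a substrate of nonsense-mediated decay. Alternative exons that keep the frame are known for adding or removing short peptides at binding surfaces, in linkers and at the sites of regulation.

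As a check of the labels, RBM39 mRNA was 441 ± 6.53 (SD, n = 3) in shCtrl and 278 ± 13.3 (SD, n = 3) in shRBM39, in gene counts scaled to a common library size (CPM), a log2 fold change of -0.67 ± 0.038 (SE, adjusted p = 1.24e-16, edgeR's quasi-likelihood test). The 6 libraries held 18042924 to 20428901 gene counts. The epithelial genes KRT8, KRT18, KRT19, EPCAM, CDH1 and VIL1 were expressed in every library, but not all at equal levels. By the same test, KRT8 (log2 fold change 0.43 ± 0.036, adjusted p = 2.92e-12) and KRT18 (0.24 ± 0.038, adjusted p = 1.19e-06) were higher in shRBM39. CDH1 (-0.39 ± 0.042, adjusted p = 1.03e-09) and VIL1 (-0.09 ± 0.036, adjusted p = 0.0298) were lower. KRT19 (adjusted p = 0.105) and EPCAM (adjusted p = 0.749) did not pass. The intestinal transcription factor CDX2 also differed between the groups, with 21.2 to 22.4 CPM in shCtrl and 4.64 to 5.56 in shRBM39 (log2 fold change -2.13 ± 0.090, adjusted p = 2.44e-20). Of 5 marker genes of other cell types, the leukocyte gene PTPRC had 0 counts in all 6 libraries and COL3A1 at most 3. Low levels were counted in every library for PECAM1 (2.82 to 3.98 CPM in shCtrl and 5.31 to 6.22 in shRBM39), COL1A1 (5.45 to 5.65 and 8.30 to 10.6) and ALB (1.38 to 1.599 and 1.80 to 2.32). The part of these marker differences in the results that follow was not tested. The study describes its libraries as replicate experiments, so p-values measure the spread between replicates of each hairpin line and not between separately derived lines. In bulk RNA, fewer cells with a transcript and less of it per cell cannot be told apart.

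The sequences of 10 member exons are shown because they carry the largest differences among short exons, or because their host genes are known for the isoforms that these exons define. APP exon 8 and LMO7 exon 11 were chosen after their values were seen, while the others followed the rule for named exons. They are written in the sense of the transcript from the GRCh38 (hg38) genome, with the exon in capitals and with 20 intronic bases before it and 6 after it in lower case.
ARHGAP12 exon 8 (chr10:31839637-31839711, minus strand): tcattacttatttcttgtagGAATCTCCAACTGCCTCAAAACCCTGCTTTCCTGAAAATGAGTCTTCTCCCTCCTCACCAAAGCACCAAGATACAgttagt
SULF2 exon 20 (chr20:47659399-47659452, minus strand): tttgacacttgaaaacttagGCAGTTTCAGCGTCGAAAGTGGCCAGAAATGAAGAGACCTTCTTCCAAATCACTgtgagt
TIA1 exon 5 (chr2:70229059-70229091, minus strand): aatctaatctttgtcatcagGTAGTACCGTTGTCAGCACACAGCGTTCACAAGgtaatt
RNF157 exon 16 (chr17:76155252-76155317, minus strand): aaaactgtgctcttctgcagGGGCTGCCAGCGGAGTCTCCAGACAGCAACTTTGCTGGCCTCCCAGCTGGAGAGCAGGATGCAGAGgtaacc
BRD8 exon 20 (chr5:138159555-138159599, minus strand): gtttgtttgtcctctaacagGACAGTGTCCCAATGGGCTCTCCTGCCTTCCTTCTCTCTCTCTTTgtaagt
TBC1D23 exon 15 (chr3:100311833-100311877, plus strand): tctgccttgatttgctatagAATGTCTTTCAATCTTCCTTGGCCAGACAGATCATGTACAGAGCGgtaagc
PICALM exon 18 (chr11:85976623-85976682, minus strand): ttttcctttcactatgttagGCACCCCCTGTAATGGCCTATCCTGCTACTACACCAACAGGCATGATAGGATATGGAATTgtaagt
MARK2 exon 15 (chr11:63903986-63904147, plus strand): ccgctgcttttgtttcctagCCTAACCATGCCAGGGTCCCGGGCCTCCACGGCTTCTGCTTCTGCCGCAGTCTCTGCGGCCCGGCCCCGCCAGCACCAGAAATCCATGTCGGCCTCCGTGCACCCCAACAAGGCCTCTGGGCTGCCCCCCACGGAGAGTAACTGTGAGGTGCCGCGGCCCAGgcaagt
APP exon 8 (chr21:25997360-25997416, minus strand): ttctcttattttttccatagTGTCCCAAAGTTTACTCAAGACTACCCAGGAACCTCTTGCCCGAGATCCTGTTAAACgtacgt
LMO7 exon 11 (chr13:75809154-75809183, plus strand): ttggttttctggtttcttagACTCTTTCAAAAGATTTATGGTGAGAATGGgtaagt

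All 420 member exons matched an exon of GENCODE release 44 with an AG directly before them, 414 were followed by GT and 6 by GC. MARK2 exon 15, which ends in gcaagt above, is 1 of these 6. The hexamer GTAAGT, searched only on the transcript strand directly after the exon, followed 11.7% of the fully coding members and 14% of the 116103 internal fully coding exons in canonical transcripts of the expressed genes. Among the printed exons it followed BRD8 exon 20, PICALM exon 18 and LMO7 exon 11. Pyrimidines were scored in the first 17 of the 20 intronic bases before the exon, which leaves out the base next to the AG. Their median share was 76.5% in the fully coding members and 76.5% in the annotation, with an upper quartile of 82.4% in both. The lower quartile was 64.7% in the members and in the frame-shifting exons with lower inclusion in group 1, against 70.6% in the annotation. It was 64.7% as well in the fully coding exons with higher inclusion in group 1, whose median was 70.6%. A lower quartile of 64.7% was thus not particular to exons with lower inclusion. These differences were not tested. The members' introns had longer medians, 2174 bases upstream and 2198 downstream, against 1426 and 1321 in the annotation. Median GC content was 49.0% against 49.5% and median exon length 111 against 122 nucleotides. Frame-shifting exons with lower inclusion in group 1 had similarly long introns, with medians of 2250 and 1831 bases. Exons with higher inclusion in group 1 had medians of 2622.5 and 2345 bases. Long introns were thus no property of the frame-keeping exons alone, nor of exons with lower inclusion.

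Inclusion levels were computed as the share of transcripts with the exon, from inclusion reads (on the exon's junctions and the exon itself) and skipping junction reads, each divided by the effective length of its form. The median of the members' mean levels was 0.582 in group 1 and 0.857 in group 2. The difference, group 1 minus group 2, had a median of -0.194, with quartiles of -0.296 and -0.139. These differences chose the members and are given as a description, without a test. The records nearest to the boundary were an exon of MFF at -0.1002, inside, and a frame-keeping exon of HNRNPD at 0.1009, outside. No listed frame-keeping SE record lay between them, although the 2 properties that chose the members would allow it. The authors' list thus held no smaller frame-keeping difference, and the median and quartiles above describe listed records only. Most members were exons that group 2 usually kept. The group 2 level was 0.9 or more in 169 records, between 0.5 and 0.9 in 201 and under 0.5 in 70. In 109 records the major form differed, with a level of at least 0.5 in group 2 and under 0.5 in group 1, and in 30 records the group 1 level was under 0.1.

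**Figure D1:**
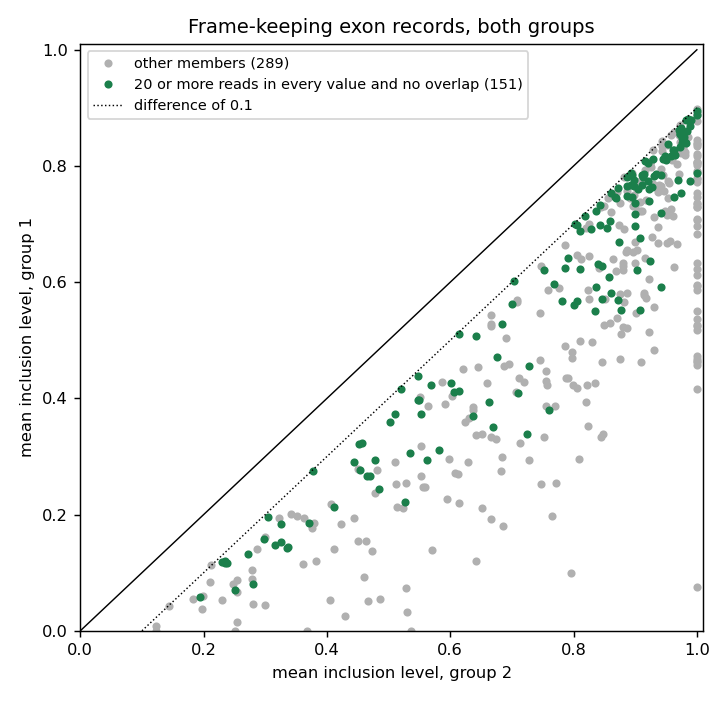
Mean inclusion level in group 1 against group 2 for the 440 frame-keeping records, with green points for the 151 records that had at least 20 reads in each of the 6 values and no overlap between the groups, and grey points for the other 289. The solid line marks equal levels and the dotted line a difference of 0.1. All points lie below the solid line because of how the members were chosen. They also lie below the dotted line, since the authors' list held no smaller frame-keeping difference.

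Depth decided how precisely a level was known. In 183 records every one of the 6 values rested on at least 20 reads, and the median SD within a group was 0.0517 in group 1 and 0.0376 in group 2. In the other 257 records it was 0.128 and 0.110, and in 90 records at least 1 value had 3 reads or fewer. The median difference was -0.143 in the deeper records and -0.256 in the shallower ones, so the largest listed differences were mostly those with the fewest reads. The lowest of all, an exon of WDSUB1 at -0.925, had a value with 1 read. The 3 levels of group 1 all lay below the 3 of group 2 in 266 members, or 60.5%, against 57.4% of the frame-shifting records with lower inclusion in group 1. Over all listed SE records the share was 42.8%, but these include the records with higher inclusion in group 1, which cannot meet the criterion, so nothing is read from that gap. Both conditions, 20 reads and no overlap, were met by 151 records of 146 exons in 138 genes, and the exons described next were taken from these unless stated.

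ARHGAP12 exon 8, which adds 25 residues to a GTPase-activating protein, stood at 0.542, 0.261 and 0.214 in group 1 against 0.677, 0.682 and 0.816 in group 2. The groups did not overlap, although the first value of group 1 stood closer to group 2 than to its own group's other values. SULF2 exon 20, with 18 residues of an extracellular sulfatase that trims heparan sulfate, had 0.362, 0.378 and 0.398 in group 1 and 0.773, 0.703 and 0.805 in group 2, so the major form differed between the groups in every value. SLTM exon 10, in a nuclear RNA-binding protein related to the scaffold attachment factors, was tightly grouped, at 0.557, 0.549 and 0.553 in group 1 against 0.896, 0.915 and 0.912 in group 2 on at least 152 reads each. TMPO exon 7, in a lamina-associated protein of the inner nuclear membrane, had 0.405, 0.424 and 0.402 in group 1 and 0.661, 0.752 and 0.715 in group 2.

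TIA1 encodes an RNA-binding protein that itself regulates splicing and assembles stress granules, and the 11 residues of exon 5 (33 nucleotides) distinguish its long from its short isoform. It was included at 0.501, 0.530 and 0.623 in group 1 against 0.911, 0.757 and 0.836 in group 2. PVR exon 6, in the nectin-like adhesion receptor also called CD155, had 0.385, 0.333 and 0.333 in group 1 and 0.647, 0.628 and 0.735 in group 2. It was also listed with a second pair of flanking exons at higher levels in both groups, 0.574, 0.474 and 0.497 against 1.0, 1.0 and 0.767, on as few as 16 reads. PTGR2 exon 6, in a prostaglandin reductase, was lower in group 1 with either pair of flanks as well.

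The remaining exons among the 15 largest differences were BRD8 exon 10, EHBP1 exon 17, BTBD16 exon 10, PARPBP exon 5, RNF157 exon 16, MARK2 exon 15 and exons of the long non-coding RNAs SNHG1 and LINC00963, where the reading frame has no meaning. BRD8 belongs to the TIP60 acetyltransferase complex, EHBP1 links endocytic traffic to actin, PARPBP restrains homologous recombination, RNF157 is a RING ubiquitin ligase and MARK2 is a kinase of microtubule-associated proteins. The mean levels of these 8 exons ran from 0.223 (BTBD16) to 0.637 (PARPBP) in group 1 and from 0.526 (BTBD16) to 0.942 (SNHG1) in group 2. In the plot of these levels, the points of the groups are separated for every exon, because only exons without overlap were eligible.

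**Figure D2:**
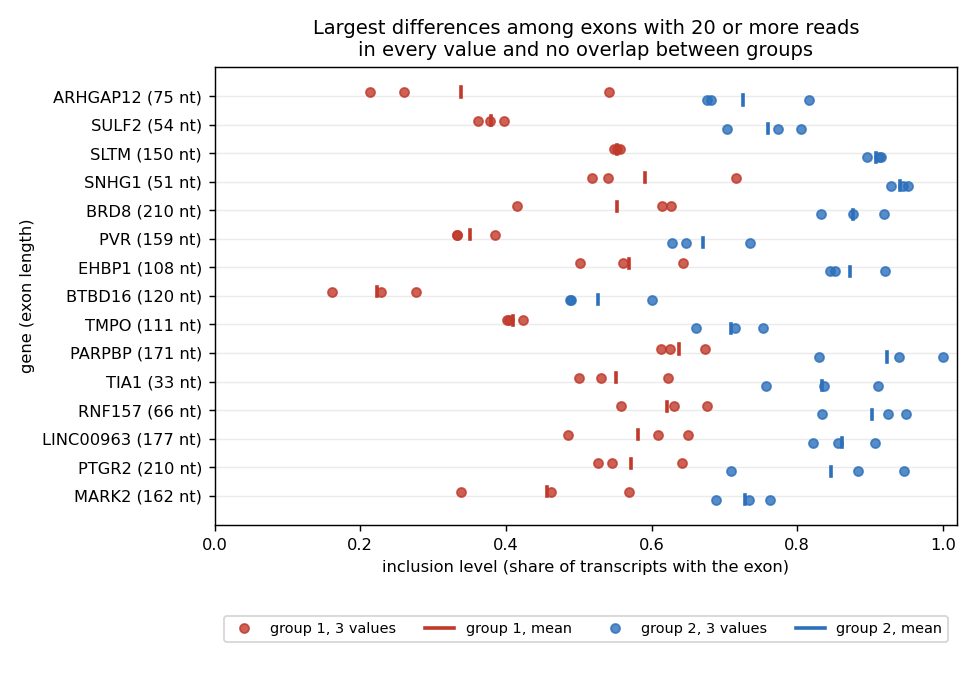
Inclusion levels (horizontal axis, share of transcripts with the exon) of the 15 exons with the largest differences among members with at least 20 reads in every value and no overlap. Red marks group 1 and blue group 2, points are the 3 values of a group and short bars their means, which run from 0.223 to 0.637 in group 1 and from 0.526 to 0.942 in group 2.

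By gene class, the regulators of GTPases held 6 member exons, of which 3 met both conditions. Beside ARHGAP12, these were ARHGEF12 exon 10, in a guanine nucleotide exchange factor, with 0.743, 0.701 and 0.713 in group 1 and 0.947, 0.903 and 0.977 in group 2, and TBC1D23 exon 15, in a protein of endosome to Golgi transport. The TBC1D23 exon, with 15 residues, was the minor form in both groups, at 0.116, 0.144 and 0.212 in group 1 and 0.318, 0.269 and 0.309 in group 2. Among kinases and phosphatases, 7 of 14 exons met both conditions. PPP1R12A exon 13, in the targeting subunit of myosin phosphatase, had a mean of 0.394 in group 1 and 0.663 in group 2. STK26 exon 7, in a germinal center kinase, had a mean of 0.747 against 0.963, and WNK1 exon 12, in a kinase of ion transport, of 0.267 against 0.465.

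Genes of actin, adhesion and junctions held 8 member exons, and 3 met both conditions. Among them, SCRIB exon 16, in a scaffold of cell polarity, had 0.281, 0.305 and 0.379 in group 1 and 0.387, 0.517 and 0.453 in group 2, with means of 0.321 and 0.453. FRMD8 exon 4, of the same class and picked by the study for a PCR assay, had levels on only 3 to 13 reads and did not meet the condition on depth. MARK2 exon 15, named above among the largest differences, was also picked by the study for such an assay and met both conditions.

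Microtubule, centrosome, cilium and motor genes held 17 member exons, of which 4 met both conditions. IFT46 exon 4, in a carrier protein of the cilium, was rare in both groups, with 0.101, 0.098 and 0.041 in group 1 and 0.301, 0.294 and 0.247 in group 2. OFD1 exon 19, in a centriole protein, had a mean of 0.528 in group 1 and 0.684 in group 2, and CEP164 exon 8, in a protein that docks the mother centriole, of 0.692 and 0.854. Genes of DNA repair, replication and the cell cycle held 10 exons with 5 that met both conditions. SKA2, a short kinetochore protein, had both of its internal coding exons among the members, exon 2 (29 residues) with means of 0.781 and 0.887 and exon 3 (59 residues) with 0.624 and 0.786. Exon 3 makes up 48.8% of the annotated coding sequence. CDC25B exon 6, in a phosphatase that activates mitotic cyclin-dependent kinase, had 0.805, 0.835 and 0.819 in group 1 and 0.984, 0.949 and 0.961 in group 2.

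Among 13 exons in genes of RNA processing and RNA binding, 8 met both conditions. Beside TIA1, DDX50 exon 9, in a nucleolar helicase, had 0.853, 0.775 and 0.695 in group 1 and 1.0, 0.965 and 1.0 in group 2. TNRC6A exon 7, in the partner of Argonaute in microRNA silencing, was the minor form in both groups, with means of 0.153 and 0.325. YTHDF1 exon 4, in a reader of N6-methyladenosine, stood apart by size, since its 507 residues are 90.7% of the coding sequence, and its means were 0.818 and 0.958. Chromatin and transcription genes held 26 exons with 9 that met both conditions, among them a second BRD8 exon, exon 20, at 0.312 against 0.581, ASXL1 exon 8, in a partner of the BAP1 deubiquitinase, at 0.561 against 0.800, and ZNF317 exon 5 at 0.676 against 0.908.

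Membrane traffic genes held 17 member exons, but only 2 met both conditions, STX16 exon 7, in a syntaxin of the Golgi, at 0.736 against 0.9004, and PICALM exon 18, in a clathrin assembly protein, at 0.827 against 0.961. Of 11 exons in mitochondrial, metabolic and transporter genes, 3 met both conditions, with DHRS4 exon 6 at 0.3601 against 0.503 and a pair of SLC3A2 exons, in the heavy chain of the CD98 amino acid transporter. The remaining 298 exons fell into no class, and 102 of them met both conditions. The classes rested on symbols, and their median differences, from -0.14 in RNA genes to -0.265 in actin and adhesion genes, spanned less than the range within any of them.

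**Figure D3:**
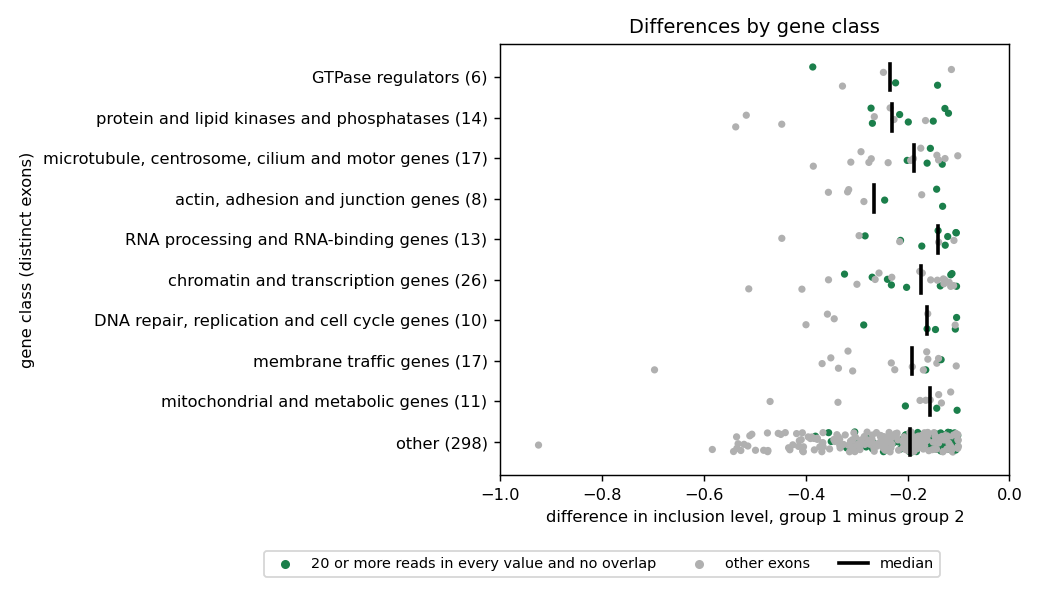
Difference in inclusion level (horizontal axis, group 1 minus group 2) of the 420 member exons by the class of their host gene, 1 point per exon. Green points are exons with at least 20 reads in every value and no overlap, grey points the others and black bars the class medians, which run from -0.265 to -0.14.

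Of the 420 exons, 341 (81.2%) were fully coding, 25 partly coding, 15 lay in a 5′ UTR and 39 in transcripts without coding sequence. Of the frame-shifting exons with lower inclusion in group 1, 65.3% were fully coding, and of the exons with higher inclusion in group 1, of either frame, 69.3%. The fully coding members encoded a median of 37 residues (quartiles 26 and 53), from 4 to 507, which was a median of 5.93% of the annotated coding sequence. In 84 of them the exon made up more than 10% of it. The exons were spread along the protein, with a median position at 49.8% of the coding sequence. None of the 341 held a stop codon in frame, which follows from the definition of a fully coding exon, so nothing is read from it. Phase is given as in the annotation, as the number of exon bases before the first complete codon. The 341 exons started in phase 0, between codons, in 185 cases, in phase 1 in 49 and in phase 2 in 107. The junction that skips the exon was annotated for 331 of the 420 exons, or 78.8%, against 67.7% of the frame-shifting exons. In a protein-coding transcript, it was annotated for 71.6% of the fully coding members, 38.6% of the fully coding frame-shifting exons and 50.4% of those with higher inclusion in group 1. In a transcript of any type, these shares were 78.0%, 63.7% and 71.3%. The annotated type of a transcript depends in part on its frame, so nothing is read from the gap in protein-coding transcripts.

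Frame-keeping exons were 48.0% of the 917 SE records with lower inclusion in group 1 (440 records, 95% Wilson interval 44.8% to 51.2%) and 45.7% of the 346 with higher inclusion (158 records, 40.5% to 50.9%). The intervals cover counting error only, and since the members were chosen by these properties the shares are a description. Among distinct fully coding exons, 53.0% of those with lower inclusion in group 1 (341 of 644) and 52.6% of those with higher inclusion kept the frame, against 40.2% of the internal fully coding exons annotated in expressed genes. The frame-shifting records with lower inclusion had a median difference of -0.206, against -0.194 in the members, and a group 2 level of 0.9 or more in 45.3% of records, against 38.4%. The differences between these sets were not tested.

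In 26 genes, 2 or more exons were members, and in DMKN, ARNTL2 and MTMR14 there were 3. DMKN, which encodes the secreted epidermal protein dermokine, had 3 short exons of 36, 54 and 48 nucleotides that all met both conditions. Exon 7 had 0.406, 0.397 and 0.390 in group 1 and 0.549, 0.587 and 0.513 in group 2. The 54-nucleotide exon had means of 0.186 and 0.371, and the 48-nucleotide exon of 0.879 and 0.983. The ARNTL2 and MTMR14 exons had as few as 2 reads in a value. Among genes with a pair of member exons, APLP2, ASUN, BRD8, C1orf43, PAM, PPHLN1, SKA2 and SLC3A2 had at least 20 reads in all 6 values of both exons. In ASUN and PAM the levels of 1 exon overlapped between the groups, and in the others both exons were separated.

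For 3 member exons, of BBIP1, BTRC and FRMD8, a record with other flanking exons had the higher level in group 1. The BTRC exon of 108 nucleotides, in a substrate receptor of an SCF ubiquitin ligase, had means of 0.424 in group 1 and 0.569 in group 2 in the record with at least 37 reads, and of 0.922 and 0.723 in the other, with as few as 3. In each of the 3 exons the record with higher inclusion had 3 reads or fewer in at least 1 value. A further 29 member exons also took part in records of mutually exclusive exons. In 40 host genes a frame-shifting exon was lower in group 1 too, and in 23 host genes another SE record was higher.

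Several members are exons by which well-known protein isoforms differ, and those that follow were chosen after their values were seen. APP exon 8, 19 residues of the amyloid precursor protein next to its Kunitz inhibitor domain, had 0.262, 0.293 and 0.365 in group 1 and 0.522, 0.565 and 0.517 in group 2. APLP2 exon 7, the Kunitz-domain exon of the related precursor-like protein, had 0.318, 0.343 and 0.306 against 0.470, 0.443 and 0.460, on at least 578 reads each. SYK exon 7, 23 residues of the linker that separates the long from the short form of this tyrosine kinase, had 0.660, 0.587 and 0.544 against 0.805, 0.809 and 0.692. The groups did not overlap for any of these.

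EHMT2 exon 10, 34 residues of the histone H3 lysine 9 methyltransferase G9a, had 0.391, 0.355 and 0.492 in group 1 and 0.593, 0.611 and 0.640 in group 2. STAG2 exon 32, 37 residues of a cohesin subunit, had 0.414, 0.437 and 0.399 against 0.539, 0.537 and 0.485. FN1 exon 33, the 90-residue extra domain A of fibronectin, had 0.844, 0.750 and 0.750 against 0.931, 0.959 and 0.850. The FN1 exon was thus kept in most transcripts of both groups, and its groups were separated by a narrow gap. Very short exons were few, with 6 exons of 30 nucleotides or less, all fully coding. LMO7 exon 11, with 10 residues of a junctional protein with a LIM domain, was the deepest example shown here apart from APLP2, with 0.166, 0.2003 and 0.183 against 0.348, 0.312 and 0.317 on at least 556 reads each.

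The mRNA levels of the 391 host genes were then compared between shRBM39 and shCtrl. The choice of members did not use the gene counts. The 2 measures are not independent, since both come from the study's 6 libraries and reads on an exon can enter both. The part of shared reads in the results was not tested. All 391 passed the filter on low counts. At an adjusted p under 0.05, 116 (29.7%) were higher in shRBM39, against 29.2% of all 18243 genes tested, and 162 (41.4%) were lower, against 29.9%. The remaining 113 did not pass. The median log2 fold change was -0.08 in the host genes and -0.01 over all genes, so the host genes were near the background for higher calls and above it for lower calls, with a small median difference. Host genes were also more highly expressed, with a median of 33.8 CPM against 11.9, and the part of this depth in the counts of calls was not tested. Under scaling by library totals alone, 74 (18.9%) were higher, against 20.7% of all genes, and 213 (54.5%) lower, against 40.4%, while the median over all genes was -0.14 and that of the host genes -0.20, an equal distance apart. Changes of at least 2-fold were called in 13 host genes, or 3.32%, against 6.52% of all genes, with 4 higher and 9 lower.

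**Figure D4:**
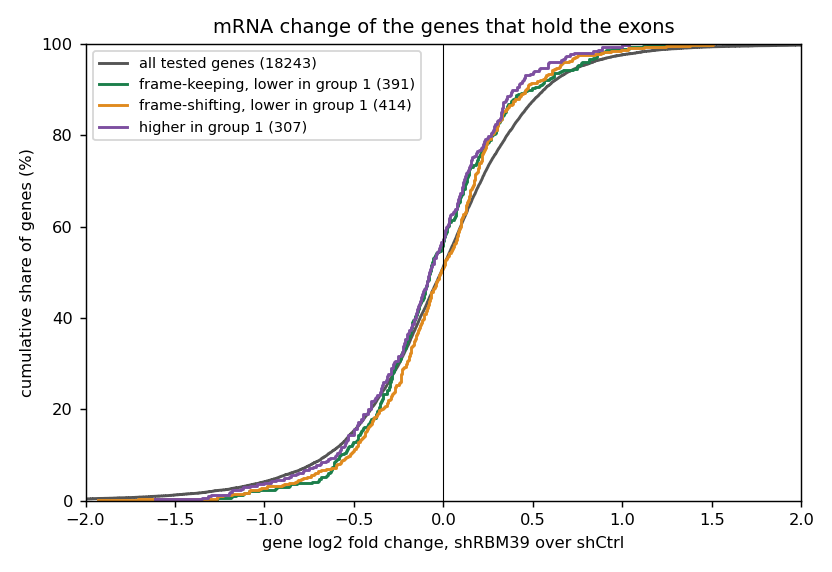
Cumulative share of genes (vertical axis, percent) by log2 fold change of shRBM39 over shCtrl (horizontal axis) for all 18243 tested genes and for the genes that hold the 3 kinds of SE exons. The curves lie close together, with medians of -0.01 for all genes, -0.08 for the hosts of frame-keeping exons, -0.02 for the hosts of frame-shifting exons and -0.08 for the hosts of exons with higher inclusion in group 1.

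The hosts of frame-shifting exons with lower inclusion had 132 higher (31.9%) and 137 lower (33.1%) calls among 414 tested genes, with a median of -0.02. The hosts of exons with higher inclusion had 82 (26.7%) and 123 (40.1%) among 307, with a median of -0.08. A share of lower calls above that of all genes was thus not particular to the members' hosts. Both sets share genes with the members' hosts, and differences between the sets were not tested. The classes of host genes are given by their counts beside the 29.2% higher and 29.9% lower of all genes. Of 6 GTPase regulators 0 were higher in shRBM39 and 4 lower, of 12 kinases and phosphatases 2 and 7, of 7 actin, adhesion and junction genes 1 and 2, and of 15 microtubule, centrosome, cilium and motor genes 6 and 6. Of 13 RNA processing and RNA-binding genes 6 were higher and 5 lower, of 24 chromatin and transcription genes 6 and 10, and of 9 genes of DNA repair, replication and the cell cycle 5 and 2. Of 17 membrane traffic genes 3 were higher and 9 lower, and of 9 mitochondrial, metabolic and transporter genes 3 and 6. With so few genes per class, nothing particular to a class is read from these counts.

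Among the host genes with the highest fold changes was ANKRD52, a regulatory subunit of protein phosphatase 6, with 48.8, 45.2 and 44.5 CPM in shCtrl and 107, 100.3 and 98.3 in shRBM39 (log2 fold change 1.14 ± 0.047, SE, adjusted p = 1.23e-20, edgeR). GINS1, a subunit of the replicative helicase (1.12 ± 0.059), CBWD2 (1.04 ± 0.054), the exonuclease EXO1 (0.94 ± 0.057) and the transcription factor MYBL1 (0.91 ± 0.098) followed. CBWD2 has near-identical copies in the genome, so its counts are uncertain. The lowest were the lipoprotein receptor VLDLR, with 13.8, 14.2 and 14.3 CPM in shCtrl and 4.13, 6.68 and 6.45 in shRBM39 (-1.30 ± 0.11, adjusted p = 2.19e-12), LINC00963 (-1.27 ± 0.055), the amino acid transporter SLC43A1 (-1.19 ± 0.074), the kinesin KIF21B (-1.18 ± 0.052) and FN1 (-1.16 ± 0.048). FN1 is also the host of the extra domain A exon described above.

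Lower inclusion was found beside mRNA changes of either sign. ARHGAP12 mRNA was lower in shRBM39, with 51.3, 51.6 and 52.4 CPM in shCtrl and 32.0, 34.3 and 35.5 in shRBM39 (log2 fold change -0.61 ± 0.050, adjusted p = 1.24e-12, edgeR). TBC1D23 (-0.65 ± 0.045), SNHG1 (-0.70 ± 0.054), RNF157 (-0.61 ± 0.055), OFD1 (-0.54 ± 0.050), EHBP1 (-0.41 ± 0.045) and SLTM (-0.34 ± 0.036) were lower as well. In contrast, TMPO rose from 231, 235 and 238 CPM to 320.2, 317 and 324 (0.45 ± 0.036, adjusted p = 7.11e-13). PARPBP (0.89 ± 0.085), TNRC6A (0.44 ± 0.048), SULF2 (0.36 ± 0.048), TIA1 (0.32 ± 0.048) and SKA2 (0.32 ± 0.046) rose too. MARK2 (-0.08 ± 0.046, adjusted p = 0.150), PVR (-0.07 ± 0.047, adjusted p = 0.203) and CDC25B (0.02 ± 0.037, adjusted p = 0.646) did not pass the test. Under library totals alone MARK2 (-0.20), PVR (-0.19) and CDC25B (-0.10) were called lower, so these calls turn on the scaling. BRD8 passed at 0.11 ± 0.037 (adjusted p = 0.0148), but stood at -0.0174 and did not pass under library totals alone, and it did not pass without shCtrl replicate 2.

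The reads behind the splicing records were set beside the gene counts to describe how the column groups relate to the libraries. Over the 167 host genes with a member exon at 20 or more reads in every value, the log2 ratio of event reads in group 1 to group 2 and the log2 fold change of the gene in shRBM39 over shCtrl had a Pearson correlation of 0.85 and a Spearman correlation of 0.84 across genes. The genes share the same libraries and are not replicates, so no p is given. Group 1 had more event reads in 43 of the 54 genes called higher in shRBM39 and in 1 of the 72 called lower. The median log2 ratio over the 167 genes was -0.18, so group 1 tended to have fewer event reads. Event reads include the inclusion and skipping reads that chose the members, and the part of that choice in these counts was not tested. No column was assigned to a hairpin from these values.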

How the data were processed

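The authors sequenced mRNA of 3 shCtrl and 3 shRBM39 libraries with a stranded kit that adds unique molecular identifiers. Their processing notes list Trimmomatic 0.36, STAR 2.5.3a, Subread 1.5.1 with featureCounts, edgeR 3.12.1 and the build GRCh38, without stating which tool made which file or whether identifiers were collapsed. The study used rMATS for splicing, with no version stated. The deposited gene table held counts per gene, with control columns named NC, which were read as shCtrl because it is the only control group. The deposited splicing table held counts of inclusion reads (on junctions and on the target exon) and of skipping junction reads, effective form lengths, and the authors' p-values, FDR and differences, which were not used. Which records the authors listed, 4.76% of the 26540 SE events they tested, depends on their criteria. The deposited RPKM values were not used.

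Inclusion levels were recomputed from the deposited reads, as (inclusion reads / inclusion length) / (inclusion reads / inclusion length + skipping reads / skipping length). Exons were matched to GENCODE release 44 and the hg38 genome by coordinates. The quasi-likelihood test of edgeR 4.0.16 under R 4.3.3 was run on the gene counts after the tool's default filter on low counts and TMM scaling, with no term but the group. P-values were two-sided and adjusted by Benjamini-Hochberg over all 18243 genes. CPM carry the TMM factors. The script was tested on simulated counts. Library totals were 18042924 to 20428901. Replicates differed beyond counting noise, so none was a duplicate. Intervals are 95% Wilson intervals.

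The members, gene classes and the rule for named exons were chosen with earlier results of these data known. The named exons are the 15 largest differences among exons with at least 20 reads in every value and no overlap, up to 3 further exons per class by the same criteria, and events of the genes that the study checked. Some exons that meet this rule are not reported here. Host genes named are the 5 highest and 5 lowest with a mean of at least 5 CPM and an adjusted p under 0.05, and the hosts of named exons. Alternatives were DESeq2 1.42.0, library totals, other filters, an adjusted p under 0.01, a replicate block, levels without effective lengths, pooled reads, a minimum of 20 reads, and leaving out each replicate.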

Additional observations from a re-analysis of the deposited data

How the results depend on the processing

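The count of host genes called higher in shRBM39 moved by more than 1.5 times only under library totals alone, to 74 from 116, and that of host genes called lower stayed within 1.5 times of 162 in all alternatives run. The median log2 fold change of host genes was -0.20 under library totals alone, -0.0668 with no filter on low counts, -0.0847 with at least 10 counts in every library and -0.068 with DESeq2, and it ranged from -0.0887 to -0.0574 with 1 library left out. Under library totals alone the sign reversed for BRD8 (-0.0174), FRMD8 (-0.0017), CEP164 (-0.0602) and CDC25B (-0.10). The labels state no pairing of the samples by replicate number. Deviations of same-numbered libraries correlated at 0.00612, -0.0282 and 0.000114, so no shared replicate effect was seen, which cannot show that the samples were unpaired. With the replicate number as a block, 117 host genes were higher and 165 lower. RBM39 kept its direction and its side of the threshold in all alternatives.

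The median difference in inclusion level was -0.161 without effective lengths, -0.202 with reads pooled over the values of a group and -0.143 with at least 20 reads in every value, where 183 members were left and 51.7% of the SE records lower in group 1 kept the frame. Leaving out 1 value moved the median to between -0.205 and -0.191, and 436 to 439 of the 440 members stayed lower in group 1. The same values chose the members, so most had to stay lower and nothing is read from that count. Depth limits 257 members, whose levels rest on fewer than 20 reads in at least 1 value. The cause of these shifts was not tested, apart from the smaller number of genes or reads that an alternative keeps by construction.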
